A study of Mus musculus with 6 samples.

Results

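A total of 4061 regions of the mouse genome that the array names only by position, each as a chromosome, a start, an end and a strand, were examined in quadriceps muscle. They were taken by the form of the name alone, from the probes that are not controls, and they were 4061 of the 44931 genes, transcripts and regions on the array. Group summaries cover the 3905 regions on the 19 autosomes, and the 156 on chromosome X are kept apart. The exercise and sedentary groups each held 3 male AR97Q mice, aged 9 weeks, with 1 array per mouse. AR97Q mice carry a transgene for the human androgen receptor with an expanded CAG repeat and are a model of spinal and bulbar muscular atrophy. Both groups carried the transgene, and the promoter that drives it is not given in the sources used here. The exercise mice ran on a forced wheel, and the sedentary mice did not. No array of wild-type mice was used here, so the comparison concerns the effect of exercise within the disease model.

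Much of the mammalian genome outside protein-coding genes is transcribed, often at a low level, into long noncoding RNAs that gene catalogues only partly describe. Both strands of one stretch of DNA can give rise to separate RNAs, and an array probe reports only the strand it is complementary to. A probe therefore says whether RNA from one short piece of an interval was present, and does not show where that RNA starts or ends. The files do not say how the intervals were defined, which gene they lie in or near, or what their probe sequences are. Coordinates refer to the mm9 build, and no gene is named for an interval because no annotation of that build was used here. In bulk muscle, fewer cells of a type and less RNA per cell cannot be told apart.

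The 3905 autosomal regions lay in 3093 intervals, with 1990 regions on the forward strand (suffix F in the name) and 1915 on the reverse strand (suffix R). The suffix is taken here as the strand of the region's RNA. The files do not say whether it is instead the strand of the probe, in which case forward and reverse are exchanged throughout. Both strands of 812 intervals had a probe. Chromosome 19 had the fewest regions, 88, and chromosome 1 the most, 309. The interval length, taken as end minus start, ran from 61 to 538250 bases, with quartiles of 706, 7327 and 21225 bases. For 953 intervals, or 30.8%, this length was a whole multiple of 25 bases. These intervals had a median length of 17675 bases, against 2359.5 bases for the others. Most regions, 3606, were read by 1 probe, and 299 by several, up to 6.

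A region was counted as detected where the scanner software marked its probe as well above background (clear of the local background) on 3 or more arrays. Of the autosomal regions, 1786 (45.7%) were detected and had a value on every array, which is the number counted as detected throughout. One further region was above background on all arrays but lacked a value on sedentary mouse 3 and was not tested. With it, 1454 regions were well above background on all 6 arrays, 1663 were so on none and 455 on 1 or 2 arrays. Strand made little difference to this share, which was 45.0% of forward and 46.5% of reverse regions. Intervals were divided at the quartiles of length into 4 classes. Detection was 31.1% in the shortest class (241 of 775), 47.8% and 48.0% in the middle classes and 51.9% in the longest (573 of 1103). Regions whose interval had probes on both strands were detected in 52.3% of 1624 cases, against 41.1% of 2281 where a single strand had probes. The share ran from 36.1% on chromosome 9 to 56.8% on chromosome 19. Among the other kinds of identifier, 36.6% of 2549 noncoding RNAs of RefSeq and 36.4% of 4532 cDNA clones with an AK accession were detected. Ensembl transcripts were detected in 49.9% of 8721 cases mRNAs of RefSeq in 72.2% of 20172 cases and all other identifiers in 33.8% of 4896 cases. These shares are descriptions of the array's content, since probes differ in how well they bind.

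On single arrays, 46.1%, 41.7% and 45.1% of the autosomal regions were well above background in exercise mice 1 to 3. In sedentary mice 1 to 3 the shares were 44.6%, 47.1% and 48.5%. The groups overlapped, with exercise mouse 2 lowest and sedentary mouse 3 highest. The means were 44.3% ± 2.31 (SD, n = 3) and 46.7% ± 1.98 (SD, n = 3), and the difference of -2.42 percentage points had p = 0.3 by a two-sided exact permutation test, for which 0.1 is the smallest p that 3 arrays against 3 allow. All other probes showed a difference of the same sign, -2.84 percentage points (exact permutation p = 0.1). With the scanner's more lenient flag for signal above background the difference between the groups was 0.094 percentage points (exact permutation p = 1).

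**Figure D1:**
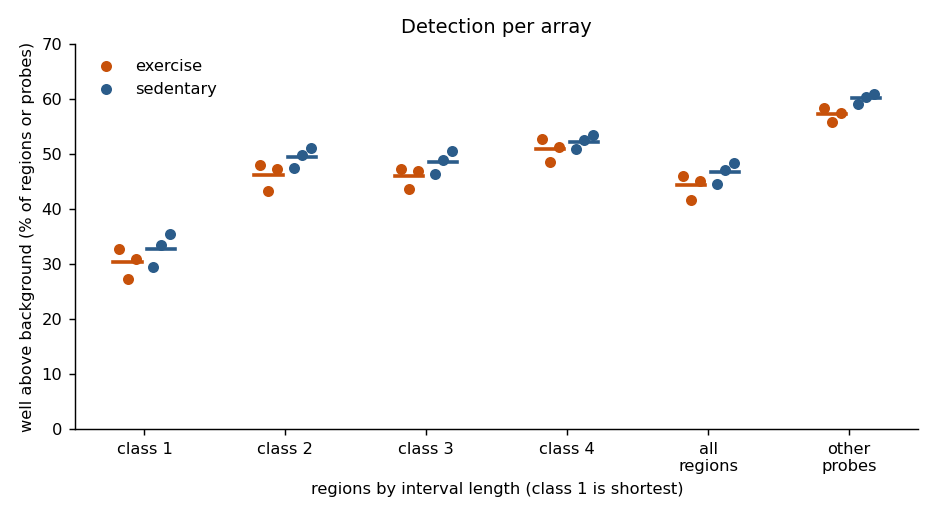
Share of regions or probes well above background (percent, vertical axis) on each array, for regions in 4 classes of length, all autosomal regions and all other probes. Points are arrays (3 exercise, 3 sedentary) and bars are group means. The shortest class lies between 27.4% and 35.5%, below the longer classes on every array.

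Across the 1786 detected autosomal regions, the signal was higher in the exercise group for 1191 and lower for 595. The median difference, exercise minus sedentary, was 0.20 on the log2 scale, against 0.03 over all 25005 genes, transcripts and regions tested. Signals here are log2 values relative to the 75th percentile of their array. The sign of the regions' median depended on that scaling: it was -0.27 without scaling, where the median of all features was -0.45, and 0.04 against -0.13 in the deposited table. The regions' median minus that of all features was above 0 under every setting, from 0.122 with the strip (defined below) as a block to 0.251 with quantile normalization. Settings that only rescale whole arrays, block by replicate number or change the variance model cannot alter this gap. It was 0.175 in each of them, as in the main setting. The difference was similar on both strands, with medians of 0.21 on the forward and 0.19 on the reverse strand. By class of length it was 0.22, 0.12, 0.24 and 0.20 from the shortest to the longest.

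The regions were mostly in the dimmer part of the range. Of the 1786, 808 fell in the dimmest of 4 equal classes of all features tested and 127 in the brightest. Within these classes of brightness the regions' median differences were 0.14, 0.18, 0.26 and 0.42 from the dimmest to the brightest. The other features had medians of -0.05, -0.08, -0.03 and 0.14. Among the other kinds of identifier the median was 0.08 for noncoding RNAs of RefSeq, -0.10 for AK clones, -0.02 for Ensembl transcripts, 0.02 for mRNAs of RefSeq and 0.12 for all other identifiers. By the thresholds given next, 3.75% of the tested noncoding RNAs of RefSeq and 3.02% of the 1657 tested features with such other identifiers were called higher. The shares were 1.33% of AK clones, 1.43% of Ensembl transcripts and 1.52% of mRNAs of RefSeq. Called lower were, in the same order of kinds, 1.39%, 1.21%, 2.36%, 1.86% and 0.673%. No test was made of these medians, because probes on one array are not independent samples.

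**Figure D2:**
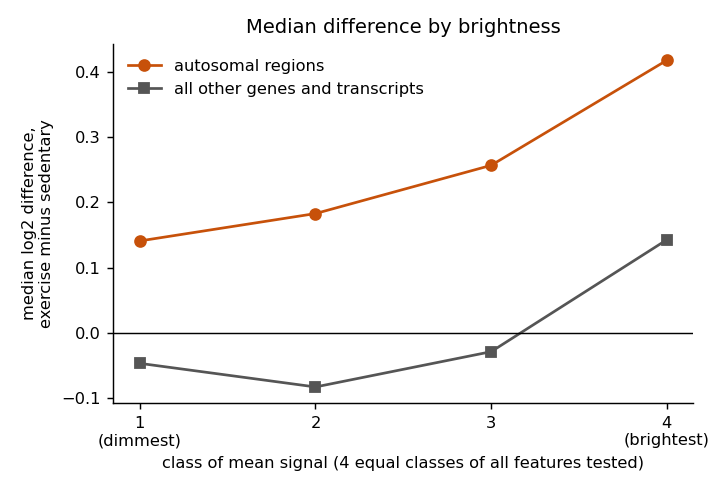
Median log2 difference, exercise minus sedentary (vertical axis), by class of mean signal (4 equal classes of all features tested, horizontal axis), for autosomal regions and for all other genes and transcripts. The regions' median is 0.14 in the dimmest and 0.42 in the brightest class, above that of the other features in each class.

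With an adjusted p under 0.05 (limma, Benjamini-Hochberg over all 25005 features) and a log2 difference of at least 1, 39 autosomal regions were called higher in exercise and 12 lower. These are 2.18% and 0.672% of the regions tested, beside 1.72% and 1.06% of all features, so both shares lay near the background. With the adjusted p alone, 277 regions (15.5%) were higher and 82 (4.59%) lower, beside 11.5% and 6.12% of all features. In 615 regions (34.4%) the exercise arrays were all above the sedentary arrays and in 194 (10.9%) all below them, beside 25.0% and 18.2% of all features. The called regions comprised 18 higher and 7 lower on the forward strand and 21 higher and 5 lower on the reverse strand. They lay on 16 chromosomes, in intervals of 171 to 216200 bases, and the lowest adjusted p was 0.0234. Of the 39 called higher, 29 were well above background on all 6 arrays, and of the 12 called lower, 4 were. Over all features, 353 of the 430 called higher and 127 of the 264 called lower were so.

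These calls depended on having all arrays. Without any 1 array other than sedentary mouse 1, limma called 0 regions in either direction, with 430 to 557 higher and 128 to 175 lower at an unadjusted p under 0.05. In these same settings it called 0 or 1 of all 25005 features, so the calls were lost over all features too. The differences themselves moved less, and that of the forward strand of chr17:32948750-32967925, 1.86 over all arrays, ran from 1.62 to 2.18 with any 1 array left out. Without sedentary mouse 1 limma called 59 regions higher and 24 lower. These were 3.30% and 1.34% of the regions, beside 2.86% and 1.92% of all features. The groups were also unevenly spread over a number in the arrays' barcodes, which is read here as the strip of the slide and is not named in the labels. By it, all exercise arrays and sedentary mouse 1 were in one strip and sedentary mice 2 and 3 in the other. With the strip as a block, 0 regions were called higher and 1 lower (unadjusted p under 0.05 in 306 and 90). Within the shared strip, where sedentary mouse 1 is the sole sedentary array, all 51 called regions had the same sign as in the whole comparison and 25 had a log2 difference of at least 1. Those arrays also helped to select the 51 regions, so this is a description and no separate check of the strip. The median difference of the regions called higher was 0.88 within the strip and 1.19 over all arrays, and that of the regions called lower was -1.36 and -1.39. Sedentary mouse 1 was the sedentary array nearest to the exercise arrays in 39 of the 51 (76.5%), and in 52.1% of all regions tested.

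**Figure D3:**
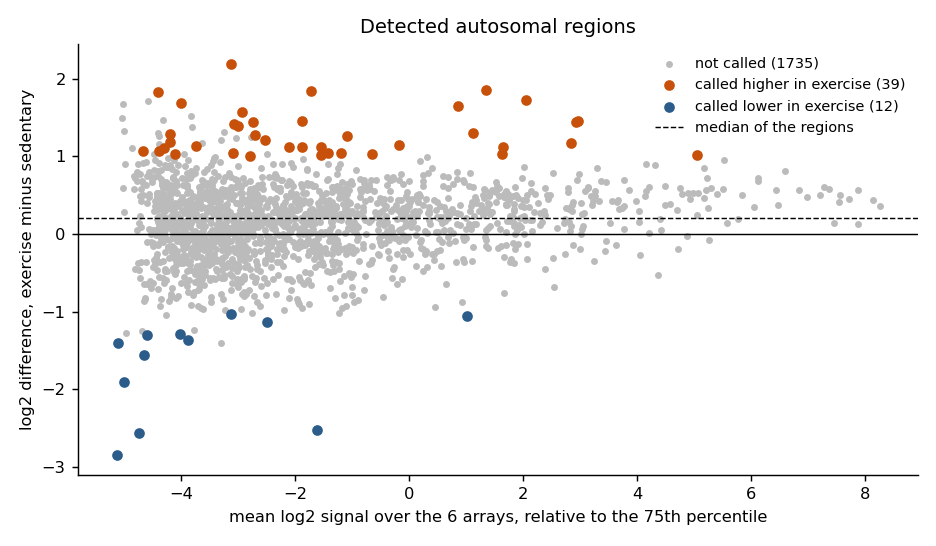
Log2 difference, exercise minus sedentary (vertical axis), against mean log2 signal relative to the array's 75th percentile (horizontal axis) for the 1786 detected autosomal regions, each a point. The 39 regions called higher spread over the range of signal, and 11 of the 12 called lower lie below a log2 signal of 0. Most regions are dim too, with 808 of the 1786 in the dimmest class of brightness and 564 in the next, which ends at -0.36.

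The 6 largest rises were taken among called regions whose groups do not overlap and that had 2 or more arrays of each group above background. They came from 6 separate intervals. The reverse strand of chr5:144517700-144526071 (8371 bases) had log2 signals of -1.67, -2.41 and -1.98 in exercise mice 1 to 3 and -3.48, -4.40 and -4.77 in sedentary mice 1 to 3. The exercise arrays were all above the sedentary ones, and it was well above background on 3 exercise and 2 sedentary arrays. The log2 difference was 2.20 ± 0.36 (SE), a 4.58-fold rise, with an adjusted p of 0.0238 by limma, and 1.46 within the shared strip. With normexp, another background correction, it was 1.01. That setting started from each spot's median signal and its background and added an offset of 50.

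On chr17:32948750-32967925 (19175 bases), the forward strand gave 2.39, 2.09 and 2.35 in the exercise mice and 1.07, 0.24 and -0.04 in the sedentary mice. Its difference of 1.86 ± 0.29 (SE, limma adjusted p = 0.0234) compares 3 closely spaced exercise arrays with sedentary arrays among which mouse 1 was highest. On chr15:77164450-77201325 (36875 bases), the reverse strand gave -0.62, -1.22 and -0.56 against -1.89, -2.84 and -3.21. It rose by 1.85 ± 0.37 (SE, limma adjusted p = 0.0277), while the forward strand of the same interval, above background on all arrays, had a difference of 0.13 and an adjusted p of 0.45. With normexp the rise was 1.19.

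At chr3:148884650-148888709 (4059 bases), signals of the reverse strand were 3.33, 2.64 and 2.77 in the exercise mice and 1.76, 1.11 and 0.70 in the sedentary mice, a difference of 1.72 ± 0.31 (SE, limma adjusted p = 0.0249). At chr14:43929100-43945100 (16000 bases), signals of the reverse strand were 1.79, 1.50 and 1.74 against 0.60, -0.09 and -0.41. This was a difference of 1.65 ± 0.26 (SE, limma adjusted p = 0.0234). For these regions the groups did not overlap, as their choice required, and the sedentary mouse with the highest signal was again mouse 1. Within the shared strip the differences of the chr17, chr15, chr3 and chr14 regions were 1.21, 1.09, 1.15 and 1.08.

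From chr1:92546371-92551596 (5225 bases), the forward strand gave -1.55, -2.32 and -2.58 in the exercise mice and -2.94, -4.06 and -4.16 in the sedentary mice. The difference was 1.57 ± 0.41 (SE, limma adjusted p = 0.0467) and fell to 0.80 within the shared strip. With normexp it was 0.82 and no longer called. Its second detected probe had a difference of 1.38. The shorter interval chr1:92549499-92550225 (726 bases) lies inside it, and its reverse strand gave -2.00, -2.13 and -1.61 against -2.60, -3.13 and -3.65. It rose too, by 1.21 ± 0.28 (SE, limma adjusted p = 0.0375), and by 0.68, without a call, under normexp. Among intervals with neighbours no more than 100 kb away, this nested pair was the only group with more than 1 called region.

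Only 4 regions met the same requirements with a lower signal in exercise. The forward strand of chr1:20669157-20672643 (3486 bases) gave -2.38, -3.13 and -3.16 in the exercise mice and -1.11, -0.06 and 0.09 in the sedentary mice. It fell by 2.53 on the log2 scale (SE 0.37, limma adjusted p = 0.0234), a 5.77-fold decrease, and was above background on all 6 arrays. Within the shared strip the difference was -1.78, and with normexp it was -1.44.

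The other falls were smaller. Signals from the reverse strand of chr12:72103832-72116875 (13043 bases) were -2.92, -3.31 and -2.93 against -1.73, -1.52 and -2.53, a difference of -1.13 ± 0.28 (SE, limma adjusted p = 0.0412). Here sedentary mouse 3 was the nearest to the exercise arrays, and the difference within the strip was -1.33. For chr7:99882675-99883730 (1055 bases), the reverse strand gave 0.51, 0.17 and 0.78 against 1.20, 1.61 and 1.82, a difference of -1.06 ± 0.21 (SE, limma adjusted p = 0.0289). For chr17:15111725-15139800 (28075 bases), the forward strand gave -3.56, -3.25 and -4.09 against -2.74, -2.50 and -2.59, a difference of -1.02 ± 0.22 (SE, limma adjusted p = 0.0311). As their choice required, the groups did not overlap in any of these regions. With normexp the chr12 and chr17 differences shrank to -0.34 and -0.20 and their calls ended, while that of the brighter chr7 region was -1.04.

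**Figure D4:**
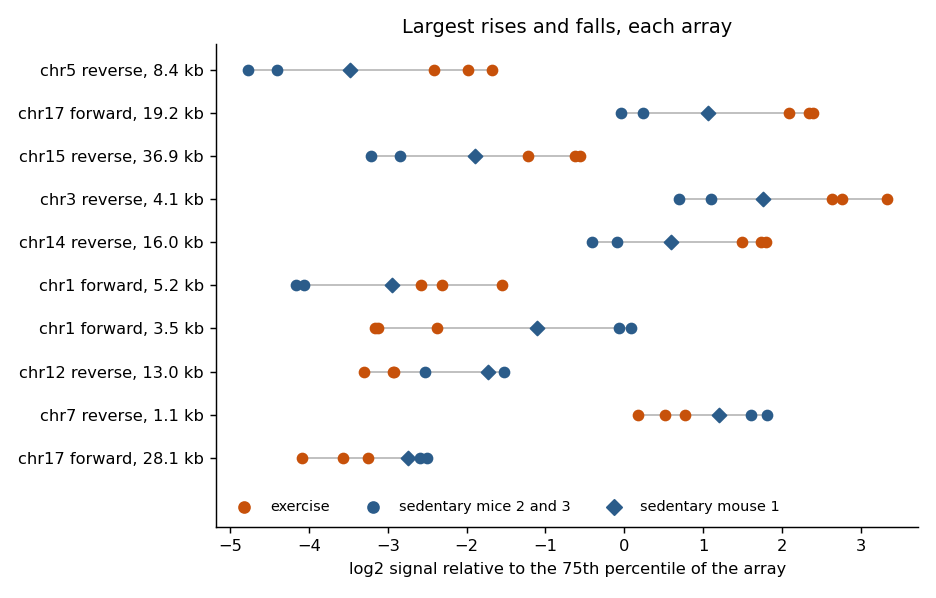
Log2 signal relative to the array's 75th percentile (horizontal axis) on each array for the 6 largest rises (top) and the 4 falls (bottom), labelled by chromosome, strand and length. Points are mice, with sedentary mouse 1 as a diamond. As the choice of regions required, in each row the 3 exercise arrays lie on one side of the 3 sedentary arrays.

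Some of the 1786 regions were well above background in one group alone: 3 on all exercise and no sedentary arrays, and 22 on all sedentary and no exercise arrays. Over all 25005 features these counts were 38 and 346, so the lean toward the sedentary arrays was that of the whole array. In the dim group such a probe has only a bound, for which each dim value under the array's lowest signal still well above background was raised to that signal. Dim values above that signal were kept. The bounds belong to the main processing and were not kept with normexp in the regions named here. These regions entered the test through the bright group alone, and the adjusted p beside each bound rests on values of the dim group that were not above background, so it is given as a description. The forward strand of chr1:75075500-75102200 gave -3.52, -4.02 and -4.02 in the exercise mice and -4.99, -4.92 and -4.86 in the sedentary mice. It was at least 1.96-fold higher in exercise (limma adjusted p = 0.0234). Likewise, the forward strand of chr1:121054422-121055142 was at least 1.62-fold higher (limma adjusted p = 0.0250). The third of these, the reverse strand of chr1:36094831-36095159, was at least 1.60-fold higher and missed the threshold (limma adjusted p = 0.0709). With normexp the differences of the 3 regions were 0.44, 0.48 and 0.43, and none was called.

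In the other direction, the forward strand of a 17900-base interval on chromosome 5 gave -6.52, -6.61 and -6.54 in the exercise mice and -3.19, -4.03 and -3.91 in the sedentary mice. It was at least 1.68-fold lower in exercise (limma adjusted p = 0.0234), its exercise values not being well above background. From chr6:148173524-148174740, the forward strand gave -5.67, -6.29 and -6.12 against -4.52, -3.64 and -2.23 and was at least 1.99-fold lower (limma adjusted p = 0.0332). Its sedentary arrays were far apart, with sedentary mouse 3 highest. The reverse strand of chr5:104936417-104984892 was at least 1.61-fold lower with a measured difference of -0.82, under the minimum for a call (limma adjusted p = 0.0308). The reverse strand of chr15:102026122-102033597 was at least 1.60-fold lower (limma adjusted p = 0.0952). These falls depended on the processing of the signal. The offset of normexp shrinks differences of such dim probes, so that setting cannot decide whether they fell. With normexp the differences were -0.08 and -0.23 for the 17900-base and chr6 intervals, which were then not called, and turned to 0.04 and 0.13 for chr5:104936417-104984892 and chr15:102026122-102033597. Of the 12 regions called lower, 6 were above background on no exercise array, so the sizes of those falls are bounds.

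The 812 intervals with probes on both strands allowed the strands to be compared directly. Neither strand was detected in 213 intervals, the forward strand alone in 153, the reverse strand alone in 196 and both in 250. The forward strand was detected in 56.1% of the 446 intervals whose reverse strand was detected and in 41.8% of the 366 whose reverse strand was not. In the 250 intervals detected on both strands, both differences were above 0 in 130, both below 0 in 23 and of opposite sign in 97. Across these intervals the differences of the strands had Pearson's r = -0.01 and Spearman's rho = 0.05, a description over intervals measured on the same 6 arrays. For comparison, 2 probes of 1 region had r = 0.48 and rho = 0.50 over 102 regions, with the same sign in 71.6%. Overlapping intervals on the same strand had r = 0.19 over 285 pairs and overlapping intervals on opposite strands r = 0.12 over 248 pairs. Neighbouring intervals that do not overlap had r = 0.14 over 299 pairs on the same strand and r = -0.07 over 248 pairs on opposite strands.

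The strands moved apart most in chr5:144517700-144526071, the interval with the largest rise on its reverse strand. Its forward strand gave -5.08, -5.97 and -6.39 in the exercise mice and -4.42, -4.40 and -4.40 in the sedentary mice. The difference was -1.40 ± 0.32 (SE, limma adjusted p = 0.0357), but the probe was above background on no exercise array, so the fall is a bound of at least 1.04-fold. A second probe for this strand was not detected. As measured, the reverse change exceeded the forward change by 3.60 on the log2 scale, a value that uses forward signals not above background and that chose this interval, so it was not tested. The next largest gap between strands was 1.90. With normexp background correction the forward difference turned to 0.17 and the reverse difference was 1.01. The forward probe is dim beside the offset of that setting, which therefore cannot decide whether the strands moved in opposite ways. The cause of this change was not tested. Of the 250 intervals, 10 had a called strand, and this was the one in which both were called.

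**Figure D5:**
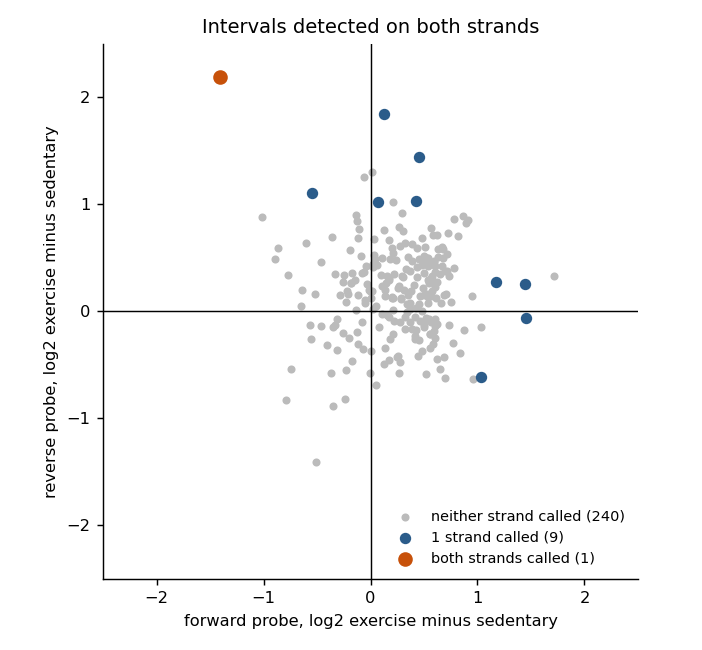
Log2 difference, exercise minus sedentary, of the forward strand (horizontal axis) and the reverse strand (vertical axis) for the 250 intervals detected on both, each a point. A single interval, at -1.40 and 2.20, has both strands called, and the rest lie nearer the origin.

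Probes and neighbours of a region did not always share its direction. Among 116 regions with several detected probes, all probes had the same sign in 78 and differed in sign in 38, with a median spread of 0.19 and a largest spread of 1.97 on the log2 scale. The largest spread was that of the reverse strand of chr6:129151512-129208737. This region was called higher with a difference of 1.45, while its other detected probe had a difference of -0.53. Intervals no more than 100 kb from the next formed 774 groups of up to 13 intervals. In the 396 groups with at least 2 tested regions, the differences were all above 0 in 139, all below 0 in 41 and mixed in 216. One of the largest groups, with 13 intervals across chr8:122712014-123008463, had 11 tested regions, of which 8 were above and 3 below 0, and 1 was called.

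Other regions barely differed in mean between the groups. The 3 smallest differences among regions above background on all arrays were those of the forward strands of chr6:142918948-142919051 and chr7:144563845-144603732 and of the reverse strand of chr1:175654606-175672031. The last gave 1.72, 1.85 and 2.02 in the exercise mice and 2.06, 1.89 and 1.65 in the sedentary mice, so the groups overlapped throughout, and its further probes had differences of -0.07 and -0.00. The SE of these differences was 0.12 to 0.17, which leaves room for differences larger than that SE. A few bright regions were read by a probe printed on many spots of each array, whose log2 signals had an SD of 0.03 to 0.10 between spots. Among them the forward strand of chr17:48068261-48087905 gave 6.11, 6.12 and 6.02 against 5.64, 5.65 and 5.47. Its difference was 0.50 ± 0.09 (SE, limma adjusted p = 0.0251). The forward strand of chr17:39983902-39985688 had a difference of -0.02 (limma adjusted p = 0.894).

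Markers of muscle and of other cells were measured on the same arrays. All 6 skeletal muscle genes in the list (Acta1, Ckm, Myh4, Myh1, Tnnt3 and Mb) were above background on all arrays, with summed signals, relative to the array's 75th percentile, of 3849 to 4370 in exercise and 1903 to 2702 in sedentary mice. Of these 6 genes, 5 were higher in exercise at an adjusted p under 0.05 by limma. Of 8 genes known to rise in denervated muscle (Chrng, Chrna1, Chrnd, Myh3, Myog, Ncam1, Gadd45a and Runx1), 6 were lower, with sums of 26.4 to 28.7 in exercise and 43.3 to 97.3 in sedentary mice. One of 5 Schwann cell genes was lower (sums of 38.7 to 46.3 and 44.0 to 58.3) and the other 4 of that list also had differences below 0 without passing. Among 5 adipocyte genes (sums of 128 to 438 and 278 to 382), Lep, which encodes the hormone leptin, was higher by 0.35 (limma adjusted p = 0.0415). Adipoq, Plin1, Cidec and Cfd had differences of -0.96, -0.92, -0.997 and -0.58 that did not pass, and the median of the list was -0.92. None of the tested macrophage (5), endothelial (4) or red blood cell (3 of 4, Hbb-bs being undetected) genes passed by limma, with 0 at an unadjusted p under 0.05. Their sums were 41.1 to 49.4 against 41.2 to 47.7, 14.4 to 19.3 against 14.2 to 17.6, and 251 to 352 against 150 to 320. Among 15 named long noncoding RNAs, 14 were tested, of which 1 was higher and 2 were lower, while Malat1 was not detected under that name. Over all features 11.5% were higher and 6.12% lower at an adjusted p under 0.05 by limma. The median difference of the 14 was -0.25, below 0 unlike that of the regions, and 2 of them were above 0. The part that these shifts had in the region signals was not tested.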

How the data were processed

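The authors hybridised quadriceps RNA with a single dye to Agilent mouse arrays read by Feature Extraction 12.1.0.3, and deposited 1 scanner file per array with a background-subtracted intensity (processed signal) per spot. They also deposited a table in which each array's intensity is multiplied by 1 factor. Here, log2 intensity was taken without the 3671 control spots (of 62976) and outlier spots, repeated spots were averaged per probe, and log2 of the array's 75th percentile (251 to 257 in exercise, 310 to 384 in sedentary mice) was subtracted. On each array 54.6% to 59.9% of probes were well above background and none was saturated. The number of arrays, 3 per group, limits the precision. Tests used probes with that flag on 3 or more arrays, and the brightest probe per gene or region.

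Groups were compared with limma 3.58.1 (R 4.3.3, no covariates, two-sided), which was tested on simulated data, with the study's thresholds. Regions were named by the size of the change among called regions whose groups do not overlap, by detection in 1 group, by calls on both strands or among neighbours, and by the smallest difference. The 17900-base interval on chromosome 5 was named in an earlier account, and the regions with repeated probes and the group on chromosome 8 were chosen after their values were seen. Members and lists were chosen with earlier results of these data known. Gene symbols came from GRCm38 accessions, 34561 of 56605 probes matching. Alternatives covered scaling, background, filters, probe choice, variance model and left-out arrays.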

Additional observations from a re-analysis of the deposited data

How the results depend on the processing

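Under the main setting 39 regions were called higher and 12 lower, with a median log2 difference of 0.20. The counts were 52 and 10 after subtraction of the array median, 39 and 10 after quantile normalization, 38 and 12 with the mean of a region's probes, and 41 and 14 with a trended, robust variance. They moved to 17 and 28 in the deposited table, 8 and 133 without scaling, 9 and 2 with normexp, 71 and 25 without the filter on dim probes, 30 and 5 with the filter on all 6 arrays, 0 and 1 with the strip as a block, and 277 and 82 with no minimum of the difference. As shares of the regions tested these were 0.952% and 1.57% in the deposited table (0.948% and 2.21% of all features), 0.448% and 7.45% without scaling (0.508% and 8.77%), and 0.504% and 0.112% with normexp (0.768% and 0.240%). Such shares were 2.91% and 0.560% with array median scaling (2.36% and 0.868%), and 2.18% and 0.560% after quantile normalization (1.45% and 0.864%). Without the filter they were 1.82% and 0.641% (1.59% and 0.775%), and with the filter on all 6 arrays 2.06% and 0.344% (1.70% and 0.700%). Of the 51 called regions, 49 were shared after array median scaling, 45 after quantile normalization, 29 in the deposited table, 20 without scaling and 11 with normexp. Leaving out 1 array gave 0 to 59 higher and 0 to 24 lower, each count being 0 unless the array left out was sedentary mouse 1.

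The median difference was 0.29 with array median scaling, 0.043 in the deposited table, 0.31 without the filter, -0.27 without scaling, 0.25 with normexp and 0.15 with the strip block. The median of all features moved to 0.11, -0.13, 0.18, -0.45, 0.09 and 0.03. The detection share differed by 0.094 percentage points under the positive and significant flag, and by -3.49 to -1.11 with 1 array left out. That flag marked 3023 regions on at least 3 arrays, against 1786. The forward strand of chr5:144517700-144526071 had a difference of 0.17 with normexp, against -1.40. Of the other named falls, those of chr5:104936417-104984892 and chr15:102026122-102033597, which were not called, also turned, to 0.04 and 0.13, and those of the 17900-base interval on chromosome 5 and of chr6:148173524-148174740 shrank from -2.85 and -2.56 to -0.08 and -0.23. The cause of these moves was not tested.

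Replicate numbers were shared between groups, but same-numbered arrays correlated at 0.015, 0.085 and 0.036, and in 2 of 3 pairs a sample matched its own number best, so they were treated as numbers only. With the replicate block, limma called 0 regions higher and 0 lower (558 and 175 at an unadjusted p under 0.05). Low signal limits the falls: 6 of the 12 regions called lower had no exercise array above background.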

Other observations

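Of the 156 regions on chromosome X, 55 (35.3%) were detected and 41 were well above background on all 6 arrays. Their median log2 difference, exercise minus sedentary, was 0.23, with 43 above and 12 below 0, and 1 was called higher and 1 lower by limma. Each call was 1.82% of the 55, beside 1.72% and 1.06% of all features called higher and lower. No region with a position name lay on chromosome Y.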
